A study of Mus musculus with 33 samples.

Results

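The matrix metalloproteinases and their tissue inhibitors described here are 10 genes: the inhibitors Timp1, Timp2, Timp3 and Timp4 and the proteases Mmp2, Mmp8, Mmp9, Mmp12, Mmp13 and Mmp14. They were found by matching their symbols to the gene table of a mouse liver RNA-seq study, and all 10 were among its 19169 genes. Polyadenylated liver RNA was sequenced in 33 libraries, and the question asked is what a mutant inflammasome gene does to the liver and whether inhibiting the kinase ASK1 changes it. Knock-in (KI) mice were Nlrp3A350V/+CreT, that is, they carried 1 mutant copy of Nlrp3 that is switched on by a tamoxifen-inducible Cre recombinase. The groups were as follows. KI ASK1i mice (10 libraries, 5 female and 5 male) ate for 6 weeks a diet with GS-444217, a selective ASK1 inhibitor. KI control mice (5 libraries, 1 female and 4 male) had control chow with placebo. WT ASK1i mice (8 libraries, 4 female and 4 male) and WT control mice (10 libraries, 7 female and 3 male) were wild type on the same diets. The sources used here give no strain, no age and no promoter for the Cre, and do not say whether WT mice received tamoxifen, so an effect of the allele and one of its induction cannot be told apart. Nor do they state that every library came from its own mouse, and the p-values therefore measure how far libraries vary.

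Matrix metalloproteinases are zinc enzymes that cut collagen, elastin and other matrix proteins as well as cytokines and cell-surface proteins. They are made as inactive proenzymes, are switched on by other proteases, and are held in check by the TIMPs, which bind the active site. In liver, neutrophils and macrophages bring several of these enzymes with them, and stellate cells, the scar-forming cells, make Timp1, Mmp2 and Mmp14, so the family is used to follow both scar deposition and its removal.

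Libraries held 28099676 to 40008118 expected counts, so 3 counts, the floor used here, were worth 0.0724 to 0.108 CPM (the counts of a gene per 1000000 counts of its TMM-normalised library). Nlrp3 ran from 5.51 to 11.0 CPM in 9 KI ASK1i libraries and from 7.87 to 15.6 CPM in KI control, against 2.38 to 3.88 CPM in WT ASK1i and 1.62 to 4.96 CPM in WT control. The female library labelled KI ASK1i replicate 5 had 2.10 CPM of Nlrp3 and lay at -59.2 on the first principal component (62.2% of the variance), where the other KI ASK1i libraries lay at 54.8 or above and WT libraries at -45.9 or below. It went against its label in most members too, and the members' results on the ASK1i diet are given with and without it. Summed CPM of 12 neutrophil markers was 766 to 5184 in the other 9 KI ASK1i libraries, 13.5 in KI ASK1i replicate 5 and 809 to 3961 in KI control, against 11.5 to 39.9 in WT ASK1i and 15.7 to 37.8 in WT control. In bulk liver RNA, more or fewer cells of a type and more or less RNA per cell cannot be told apart.

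In KI liver on control chow, 2 inhibitors and 4 proteases were at levels far above WT: Timp4, Mmp8, Mmp9, Timp1, Mmp12 and Mmp13, with log2 fold changes of 3.13 to 12.01. Timp3 was lower, Mmp2 and Mmp14 were modestly higher, and Timp2 did not pass the test (log2 fold change 0.14, SE 0.13, edgeR adjusted p = 0.4). Of the 10 members, 9 passed an edgeR adjusted p of 0.05, where 56.7% of all 14934 genes tested did. Of these 9, 8 were higher (27.8% of all genes) and 1 was lower (28.9% of all genes). The members' median log2 fold change was 3.86, against -0.03 over all genes tested. Members were chosen with earlier results of these data known, so setting them beside all genes is a description and no test. Timp1, Timp4, Mmp8 and Mmp13 passed the filter on low counts only with KI libraries included (6 of 10 members passed it in WT libraries alone), so a difference in these 4 was set by the filter and the counts are given as description. The values of 6 members in every KI control library lay above every WT control library, as did 16.3% of all genes tested. Timp3 lay below in every one, as did 12.8% of all genes.

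**Figure D1:**
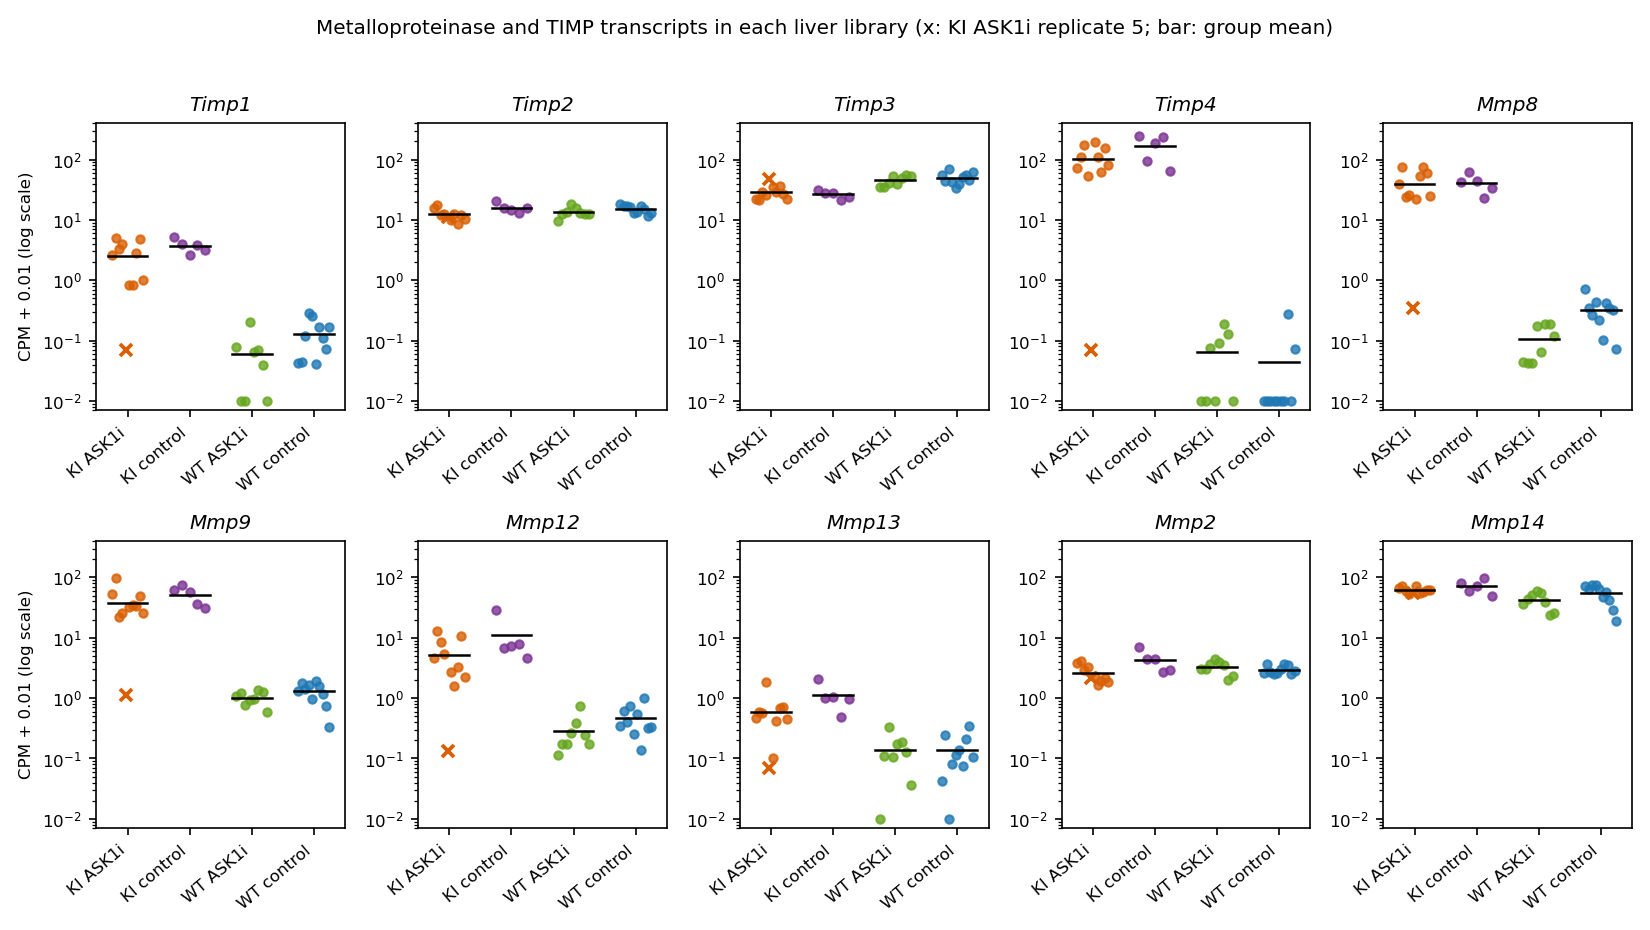
Each point is 1 library's CPM plus 0.01 on a log axis, by group, with the group mean as a bar and KI ASK1i replicate 5 as a cross. Timp1, Timp4, Mmp8, Mmp9 and Mmp12 form a high KI band and a low WT band in which the cross lies, whereas Timp2 and Mmp2 lie at much the same height in all 4 groups.

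Timp4, an inhibitor best known from the heart, was the member with the widest contrast. Its row covers mm10 chromosome 6 from 115245616 to 115251849 on the minus strand. KI control libraries had 250, 95.1, 187, 234 and 64.8 CPM. Of the 10 WT control libraries, 8 had 0 counts and the highest, replicate 8, had 0.27 CPM. In KI ASK1i the lowest, median and highest values were 0.0609, 94.4 and 198 CPM, against 0, 0.0326 and 0.176 CPM in WT ASK1i. Without KI ASK1i replicate 5, which had 2 counts, the lowest KI ASK1i library was at 53.3 CPM and no KI library overlapped WT. Timp4 passed the filter on low counts only with KI libraries, so its fitted values and p-values are description. The fitted log2 fold change of KI over WT was 12.01 (SE 0.90, edgeR adjusted p = 3.75e-10) on control chow and 10.70 (SE 0.90, edgeR adjusted p = 6.61e-10) on the ASK1i diet. The whole WT control group had 10 Timp4 counts, 8 of them in replicate 8, so the fitted size depends on the prior count; without that library it was 13.76, and without KI control replicate 1 it was 11.42. Summed CPM of 5 heart and skeletal muscle markers was at most 1.16 in any KI library and 1.44 in any WT library. For 5 adipocyte markers the median was 15.4 in KI ASK1i and 14.8 in KI control, against 9.03 in WT ASK1i and 8.6 in WT control. Their ranges overlapped between genotypes. The part of other tissue in the Timp4 result was not tested.

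Timp1, the inhibitor that stellate cells and macrophages make in injured liver, showed the same split at a lower level. It is on chromosome X at 20870166 to 20874737 on the plus strand. KI control libraries had 5.22, 3.93, 2.61, 3.81 and 3.15 CPM, against 0.0314, 0.104 and 0.281 CPM as the lowest, median and highest of WT control. KI ASK1i libraries had 0.0609, 2.72 and 4.94 CPM (0.818 as the lowest without replicate 5), against 0, 0.0422 and 0.194 CPM in WT ASK1i. Every KI library but KI ASK1i replicate 5 was thus above every WT library. The log2 fold change was 5.06 (SE 0.60, edgeR adjusted p = 5.98e-08) on control chow and 5.63 (SE 0.66, edgeR adjusted p = 2.92e-08) on the ASK1i diet. Timp1, like Timp4, passed the low-count filter only with KI libraries, so these values are description. WT values rest on 36 counts in 10 control libraries and 13 counts in 8 ASK1i libraries.

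Timp3 moved the other way. It encodes the inhibitor that stays bound to matrix and also blocks ADAM17, the protease that releases tumour necrosis factor, and lies on chromosome 10 at 86300412 to 86349505. KI control libraries had 31.1, 28.2, 28.2, 21.3 and 24.1 CPM, against 33.9, 48.6 and 69.3 CPM in WT control, with no overlap. On the ASK1i diet KI libraries had 21.2, 27.6 and 47.4 CPM, against 34.5, 45.1 and 56.0 CPM in WT. The groups overlapped, with 7 of the 10 KI libraries below every WT library. The highest KI value was that of replicate 5, and without it the highest was 36.7 CPM. Timp3 fell by 0.83 (SE 0.18, edgeR adjusted p = 0.000237) on control chow and by 0.63 (SE 0.14, edgeR adjusted p = 0.000415) on the ASK1i diet, on the log2 scale. All 6 hepatocyte markers tested were lower in KI on control chow (28.9% of all genes), with a median of -1.29 on that scale. On the ASK1i diet 4 of 6 were lower (28.8% of all genes). The part of these markers in the Timp3 result was not tested.

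Timp2, the inhibitor that also helps Mmp14 to activate Mmp2, lies on chromosome 11 at 118301061 to 118355411. It had 20.3, 15.5, 14.5, 12.9 and 15.5 CPM in KI control libraries, against 11.6, 15.7 and 18.5 CPM in WT control. On the ASK1i diet it had 8.57, 12.1 and 17.9 CPM in KI libraries, against 9.61, 12.9 and 18.2 CPM in WT libraries. Its groups overlapped on both diets, and the difference on the ASK1i diet was -0.09 (SE 0.11, edgeR adjusted p = 0.523).

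Mmp8 and Mmp9, the collagenase and the gelatinase that neutrophils store in granules, were the proteases with the widest contrasts. Mmp8 (chromosome 9, 7558429 to 7568486) had 42.2, 62.4, 43.9, 23.4 and 34.1 CPM in KI control libraries, against 0.0636, 0.322 and 0.693 CPM in WT control. On the ASK1i diet it had 0.335, 32.5 and 75.9 CPM in KI libraries, against 0.0326, 0.0811 and 0.177 CPM in WT libraries. It is the 1 member whose values in all 10 KI ASK1i libraries, replicate 5 included, were above every WT ASK1i library, though replicate 5 at 0.335 CPM was within the range of WT control. Its log2 fold changes were 7.11 (SE 0.60, edgeR adjusted p = 1.7e-09) on control chow and 8.55 (SE 0.69, edgeR adjusted p = 4.29e-10) on the ASK1i diet. Mmp8 too passed the low-count filter only with KI libraries, so these values are description.

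Mmp9 (chromosome 2, 164948219 to 164955849) had a higher WT level. In KI control it had 60.9, 74.4, 56.5, 36.4 and 31.0 CPM, against 0.318, 1.38 and 1.91 CPM in WT control. KI ASK1i libraries had 1.13, 33.1 and 96.8 CPM, against 0.59, 1.01 and 1.38 CPM in WT ASK1i. Replicate 5, at 1.13 CPM, was the 1 KI library within the WT range, and the next KI ASK1i library was at 22.2 CPM. The log2 fold changes were 5.35 (SE 0.48, edgeR adjusted p = 1.93e-09) on control chow and 5.29 (SE 0.48, edgeR adjusted p = 1.05e-09) on the inhibitor diet. All 12 neutrophil markers tested were also higher in KI on both diets (27.8% and 30.3% of all genes), with median log2 fold changes of 7.11 and 7.54. Whether each marker passed the low-count filter in WT libraries alone is not given here, so this is description. The part of these markers in the Mmp8 and Mmp9 results was not tested as a cause. How they moved together with Mmp8 and Mmp9 among KI libraries is given further on.

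Mmp12, the macrophage elastase, lies on chromosome 9 at 7344397 to 7369499. It had 28.9, 6.73, 7.23, 7.82 and 4.67 CPM in KI control libraries, against 0.128, 0.362 and 0.978 CPM in WT control. KI ASK1i libraries had 0.122, 3.94 and 12.9 CPM (1.55 as the lowest without replicate 5), against 0.103, 0.201 and 0.733 CPM in WT ASK1i. The highest library, KI control replicate 1, was the only female of its group and stood well above the other 4. Log2 fold changes were 4.59 (SE 0.56, edgeR adjusted p = 1.19e-07) on control chow and 4.33 (SE 0.59, edgeR adjusted p = 4.26e-07) on the ASK1i diet; without KI control replicate 1 the value on control chow was 3.68 (edgeR adjusted p = 2.96e-05). All 10 markers of monocyte-derived macrophages were higher in KI on each diet (median 4.05 on both), as were 27.8% and 30.3% of all genes. Their passing of the low-count filter in WT libraries alone is not given here either, so this is description. Summed CPM of these markers was 544 to 679 in KI control and 273 to 1140 in the 9 KI ASK1i libraries. In WT control it was 14.9 to 39.4 and in WT ASK1i 13.5 to 27.5. The part of these markers in the Mmp12 result was not tested.

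Mmp13, the main interstitial collagenase of rodents, was the least abundant of these enzymes in KI liver. It lies on chromosome 9 at 7272514 to 7283333. It had 2.07, 1.01, 1.03, 0.473 and 0.974 CPM in KI control (17 to 75 counts), against 0, 0.0995 and 0.338 CPM in WT control. KI ASK1i libraries had 0.0609, 0.515 and 1.85 CPM, against 0, 0.109 and 0.326 CPM in WT ASK1i. Of the 10 KI ASK1i libraries 8 were above all WT ASK1i libraries, and replicate 5 and 1 further library were within the WT range. Log2 fold changes were 3.13 (SE 0.57, edgeR adjusted p = 3.16e-05) on control chow and 2.16 (SE 0.56, edgeR adjusted p = 0.00134) on the ASK1i diet. They are description, since Mmp13 passed the low-count filter only with KI libraries. The call on the ASK1i diet was not met in male libraries alone (1.49, edgeR adjusted p = 0.0802).

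The AP-1 motif is the best known regulatory sequence of this protease family, usually with a nearby PEA3 motif. The sequence before the start of members with wide contrasts is therefore shown where it was available. RefSeq (GRCm38.p6, the same assembly as mm10) gave a window for 8 of 10 members, and none for Mmp2 and Mmp9. The windows of Timp1, Timp4, Mmp8, Mmp12 and Mmp13 follow, 250 bases up to the base before the annotated start, 5′ to 3′ on the gene's strand. The annotated start of Timp4 lies upstream of the span of its row, which ends at 115251849. Capitals mark AP-1 (TGANTCA) and PEA3 (AGGAAG, or CTTCCT for the other strand). They are at chrX:20869916-20870165 on the plus strand for Timp1, chr6:115252206-115252455 on the minus strand for Timp4, chr9:7558179-7558428 on the plus strand for Mmp8, chr9:7344147-7344396 and chr9:7347124-7347373 on the plus strand for the first and the second start of Mmp12, and chr9:7272264-7272513 on the plus strand for Mmp13.
Timp1: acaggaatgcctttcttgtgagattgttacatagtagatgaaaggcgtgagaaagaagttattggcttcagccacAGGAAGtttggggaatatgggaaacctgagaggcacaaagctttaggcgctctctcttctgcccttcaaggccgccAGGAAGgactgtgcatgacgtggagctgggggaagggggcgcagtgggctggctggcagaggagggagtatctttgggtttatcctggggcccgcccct
Timp4: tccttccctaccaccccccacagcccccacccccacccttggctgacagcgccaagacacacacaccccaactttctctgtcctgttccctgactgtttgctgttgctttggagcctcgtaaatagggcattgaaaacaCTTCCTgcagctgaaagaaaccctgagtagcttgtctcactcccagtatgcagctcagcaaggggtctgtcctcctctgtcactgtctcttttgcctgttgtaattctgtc
Mmp8: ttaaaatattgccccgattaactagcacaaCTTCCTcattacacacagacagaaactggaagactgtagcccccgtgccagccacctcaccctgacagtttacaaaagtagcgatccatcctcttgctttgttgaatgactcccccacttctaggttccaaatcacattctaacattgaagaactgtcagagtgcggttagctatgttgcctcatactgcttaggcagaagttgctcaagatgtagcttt
Mmp12, first start: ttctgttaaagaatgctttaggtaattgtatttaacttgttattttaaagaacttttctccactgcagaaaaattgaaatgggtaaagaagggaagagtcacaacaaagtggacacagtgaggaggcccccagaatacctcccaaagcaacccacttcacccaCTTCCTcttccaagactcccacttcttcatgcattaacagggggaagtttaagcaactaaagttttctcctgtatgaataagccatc
Mmp12, second start: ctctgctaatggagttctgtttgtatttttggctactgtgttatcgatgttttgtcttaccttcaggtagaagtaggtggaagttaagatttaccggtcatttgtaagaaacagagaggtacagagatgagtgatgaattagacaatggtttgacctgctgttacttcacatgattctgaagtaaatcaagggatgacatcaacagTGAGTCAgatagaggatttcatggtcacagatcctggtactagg
Mmp13: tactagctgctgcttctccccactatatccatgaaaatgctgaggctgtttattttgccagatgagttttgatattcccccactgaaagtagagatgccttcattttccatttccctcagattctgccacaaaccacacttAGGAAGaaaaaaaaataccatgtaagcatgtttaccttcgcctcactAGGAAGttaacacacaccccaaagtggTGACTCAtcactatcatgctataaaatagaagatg

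The AP-1 motif was found on either strand in the windows of Mmp13 (bases -35 to -29 before the start, with 2 PEA3 motifs at -109 and -62) and of the second Mmp12 start (bases -44 to -38), and in 6.73% of 32536 windows of the same length. PEA3 occurred in windows of Timp1, Timp3, Timp4, Mmp8, Mmp12, Mmp13 and Mmp14, and in 29.6% of all windows, which is a description and was not tested. TATAAA occurred in the window of Mmp13 at -16 and in 12.3% of windows. A STAT motif (TTCNNNGAA, 7.04% of windows) was in none of the members' windows. The first Mmp12 start had an NF-kB motif at -129 (7.28% of windows) and a C/EBP motif (TTGCNNNAA, 8.3% of windows) at -40. No motif overlapped another of a different name in these windows. Matches are letters in a window, and binding was not measured here.

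Mmp2 and Mmp14 moved little. Mmp2, gelatinase A, lies on chromosome 8 at 92827328 to 92853420. KI control libraries had 6.94, 4.46, 4.41, 2.75 and 2.92 CPM, against 2.50, 2.74 and 3.71 CPM in WT control. KI ASK1i libraries had 1.64, 2.25 and 4.19 CPM, against 1.98, 3.28 and 4.37 CPM in WT ASK1i. Of the 5 KI control libraries 3 were above all WT control libraries, and on the ASK1i diet the groups overlapped. The log2 fold change was 0.50 (SE 0.17, edgeR adjusted p = 0.0158) on control chow and -0.21 (SE 0.15, edgeR adjusted p = 0.231) on the ASK1i diet. The call on control chow rested on KI control replicate 1, the female: without it the value was 0.23 (edgeR adjusted p = 0.314), and in male libraries alone 0.10 (edgeR adjusted p = 0.771). With the L code of the titles in place of the title set it was 0.59 (edgeR adjusted p = 0.0687). The labels do not explain this code. KI control libraries had L1 or L7 and WT control libraries L5, L6 or L8, so on control chow these groups share no code. Genotype and L code can therefore not be told apart within control chow. Of 12 stellate cell and myofibroblast markers, 8 were higher in KI on control chow (27.8% of all genes, median 0.62). With the inhibitor 6 were higher and 2 lower (30.3% and 28.8% of all genes, median 0.29). Their summed CPM was 459 to 727 in KI control and 377 to 570 in the 9 KI ASK1i libraries, against 298 to 418 in WT control and 293 to 400 in WT ASK1i; their part in the Mmp2 result was not tested.

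Mmp14, the membrane-anchored protease that cuts collagen and activates Mmp2, lies on chromosome 14 at 54431604 to 54441258. The 5 KI control libraries had 82.3, 60.4, 72.8, 97.0 and 48.5 CPM, against 18.8, 60.4 and 76.3 CPM in WT control. KI ASK1i libraries had 53.5, 60.8 and 73.1 CPM, against 24.2, 42.0 and 59.7 CPM in WT ASK1i. The groups overlapped on both diets, yet all 10 KI ASK1i libraries were above the WT ASK1i mean, replicate 5 included at 54.5 CPM. The log2 fold change was 0.60 (SE 0.18, edgeR adjusted p = 0.00504) on control chow and 0.75 (SE 0.15, edgeR adjusted p = 0.00011) on the ASK1i diet. Libraries fall into 2 sets by title, numbered and numbered with a P, and WT libraries of the P set were low in Mmp14. Within the numbered set, KI control libraries had 60.4 to 97.0 CPM and WT control libraries 42.8 to 76.3 CPM. In the P set the 1 KI control library had 48.5 CPM and the 2 WT control libraries 18.8 and 28.5 CPM. In that set the KI control library had the code L1 and the WT control libraries L8. The prefixes of their count column names differed too, and the labels do not explain them. Genotype and these labels cannot be told apart there. Without sex and title set in the model the call on control chow was not met (0.41, edgeR adjusted p = 0.133).

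On the ASK1i diet 8 of the 10 members passed an edgeR adjusted p of 0.05 for KI against WT, where 59.1% of all genes tested did. Of these, 7 were higher (30.3% of all genes) and 1 was lower (28.8% of all genes). The median log2 fold change of the 10 members was 3.24, against 0.01 over all genes. As on control chow, setting them beside all genes is a description. The 8 called were the members called on control chow except Mmp2. Among them are Timp1, Timp4, Mmp8 and Mmp13, which passed the low-count filter only with KI libraries. The values of 5 members in 9 KI libraries were above all WT libraries when KI ASK1i replicate 5 was left out (13.0% of all genes), and those of 1 member with it (2.36% of all genes). No member lay below WT in every library, with KI ASK1i replicate 5 (3.91% of all genes) or without it (12.0% of all genes). The 8 calls stood without that library, with log2 fold changes of 5.84 for Timp1, 10.99 for Timp4, 8.78 for Mmp8, 5.49 for Mmp9, 4.53 for Mmp12, 2.31 for Mmp13, 0.82 for Mmp14 and -0.73 for Timp3. Without it Timp2 was at -0.05 and Mmp2 at -0.16, and neither passed the test.

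**Figure D2:**
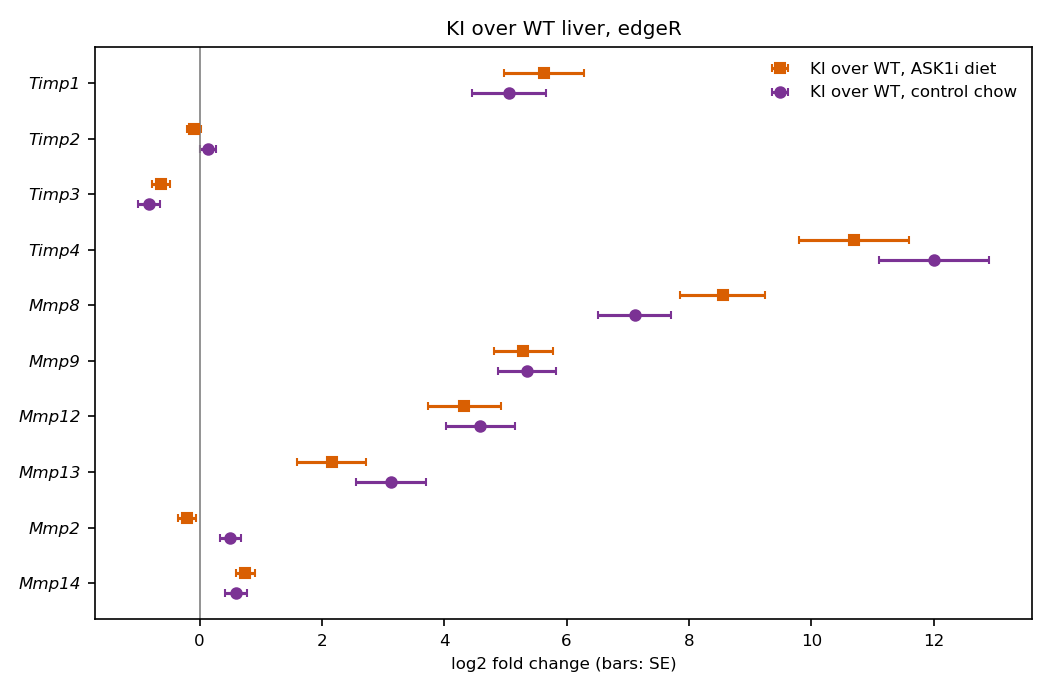
Log2 fold changes of KI over WT liver from edgeR with standard errors as bars, on the ASK1i diet (squares) and on control chow (circles). Timp4 lies above 10 and Mmp8 above 7 on both diets, Timp3 lies below 0 on both, and Mmp2 lies on either side of 0.

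Per length, the order of the members differed between genotypes. Levels were divided by the length of the transcript named in each row (the mean of 2 for Timp1) within the row's span. In KI control liver Timp4 stood first at a mean of 117 CPM per kb, followed by Mmp14 at 27.9, Mmp8 at 17.0, Mmp9 at 16.3, Timp3 at 5.68, Timp2 at 4.35, Timp1 at 4.24, Mmp12 at 3.07, Mmp2 at 1.41 and Mmp13 at 0.416 CPM per kb. In KI ASK1i liver Timp4 also stood first (71.7 CPM per kb), with Mmp14 next (23.8 CPM per kb). In WT control liver Mmp14 stood first at 21.0 CPM per kb, followed by Timp3 at 10.7, Timp2 at 4.20 and Mmp2 at 0.977 CPM per kb, and the other 6 members were at 0.404 CPM per kb or below, with Timp4 last at 0.0235. The WT ASK1i order also had Mmp14 (16.1), Timp3 (9.66), Timp2 (3.72) and Mmp2 (1.06 CPM per kb) at the top and Timp4 (0.039 CPM per kb) last. In KI control, Timp4 ran from 45.8 CPM per kb upward and did not overlap Mmp14, whereas Mmp8 and Mmp9, and Timp2 and Timp1, overlapped. The place of Timp4 depends on its length: the row spans 1416 bases of the transcript, and with the full GENCODE length of 5496 bases it would be 30.2 CPM per kb in KI control, within the range of Mmp14. In KI ASK1i the full length puts it at 18.5 CPM per kb, below Mmp14.

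The 3 inhibitors that changed, Timp1, Timp3 and Timp4, each lie inside a synapsin gene on the opposite strand (GENCODE M21): Timp1 in Syn1, Timp3 in Syn3 and Timp4 in Syn2. Synapsins are vesicle proteins of nerve terminals. The kit keeps strand, but no source used here says whether counting used it, so reads of a gene and of its antisense partner cannot be told apart where exons meet. Shared exon bases are 0 for Timp1 and Syn1, 1733 for Timp3 and Syn3 and 90 for Timp4 and Syn2. Syn2 had 30.2, 11.5, 12.0, 15.4 and 8.66 CPM in KI control, against 0.0703, 0.366 and 0.86 CPM in WT control. Every KI control library was above every WT control library, with a log2 fold change of 5.62 (SE 0.59, edgeR adjusted p = 1.21e-08), and on the ASK1i diet it was 5.02 (SE 0.59, edgeR adjusted p = 3.32e-08). In total counts Syn2 came to 10.7% of Timp4 in KI ASK1i and 9.38% in KI control, whereas in WT ASK1i 97 Syn2 counts stood beside 15 of Timp4 and in WT control 116 beside 10. Over the 14 KI libraries without KI ASK1i replicate 5, Timp4 and Syn2 had r = 0.66 and rho = 0.62 as a description. Syn1 was also higher in KI (1.78 on control chow, SE 0.39, edgeR adjusted p = 0.000285, and 1.02 on the ASK1i diet, SE 0.33, edgeR adjusted p = 0.00945), the second of which was not met in males alone (edgeR adjusted p = 0.0994) or with the replicate number as a block (0.0544). Syn3, like Timp3, was lower on control chow (-0.80, SE 0.18, edgeR adjusted p = 0.000345; -0.40 and 0.235 with the L code in the model), and on the ASK1i diet it had -0.30 (SE 0.14, edgeR adjusted p = 0.071; -0.40 and 0.0119 without KI ASK1i replicate 5). The Mmp12 row also shares 157 exon bases with Mmp1b, which is not analysed here.

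**Figure D3:**
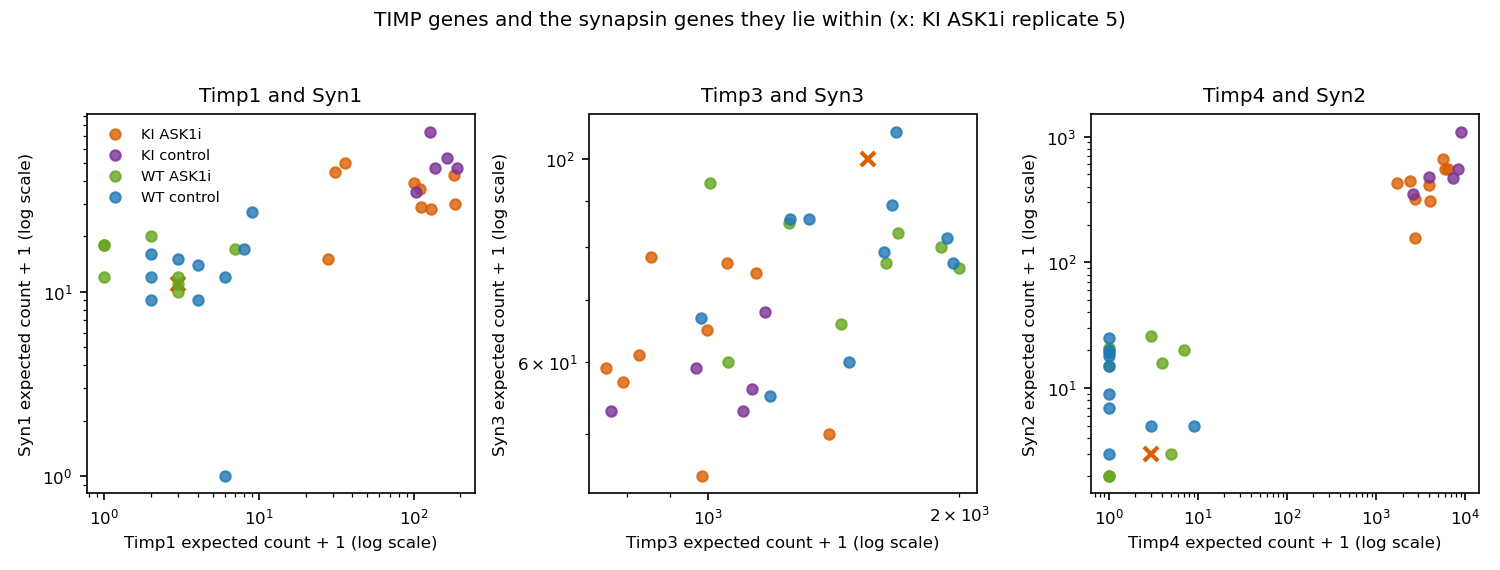
Expected counts plus 1 of each TIMP gene against the synapsin gene it lies within, 1 point per library on log axes, with KI ASK1i replicate 5 as a cross. In the Timp4 and Syn2 panel KI libraries form a cloud at the top right and all WT libraries, with the cross, lie at the lower left.

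Whether the ASK1 inhibitor changed the members in KI liver was asked next, and no member passed the test. With edgeR 8 genes of 14934 were called (0.0536%), all lower, and 0 of them were members. The members' median log2 fold change was -0.47, against 0.03 over all genes, which is a description and includes KI ASK1i replicate 5. The smallest p was that of Mmp2: the values given above were 1.64, 2.25 and 4.19 CPM in KI ASK1i, against 6.94, 4.46, 4.41, 2.75 and 2.92 CPM in KI control. All 10 KI ASK1i libraries were below the KI control mean and 6 were below every KI control library. The log2 fold change was -0.60 (SE 0.17, p = 0.00134 unadjusted, edgeR adjusted p = 0.349). Without KI ASK1i replicate 5 it was -0.56 (edgeR adjusted p = 0.34), and without KI control replicate 1 it was -0.35 (edgeR adjusted p = 0.812). KI ASK1i libraries of the P set had 1.64 to 2.12 CPM and those of the numbered set, without replicate 5, 2.33 to 4.19 CPM, so the title sets did not overlap within this group. In the numbered set alone the log2 fold change of Mmp2 was -0.57 (edgeR adjusted p = 0.67).

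Timp2 was next, with 8.57, 12.1 and 17.9 CPM in KI ASK1i and 20.3, 15.5, 14.5, 12.9 and 15.5 CPM in KI control. The lowest KI control library was above 8 of the 10 KI ASK1i libraries, and the log2 fold change was -0.35 (SE 0.13, p = 0.0104 unadjusted, edgeR adjusted p = 0.429). Without KI ASK1i replicate 5 it was -0.32 (edgeR adjusted p = 0.504). Among the members with wide genotype contrasts the values were -0.58 (SE 0.50) for Timp1, -0.65 (SE 0.59) for Timp4, -0.20 (SE 0.48) for Mmp8, -0.34 (SE 0.42) for Mmp9, -0.89 (SE 0.52) for Mmp12 and -0.97 (SE 0.52) for Mmp13, with edgeR adjusted p from 0.512 to 0.89. Standard errors of 0.42 to 0.59 mean that changes of 1 unit or less on the log2 scale were not resolved in these 6. Without KI ASK1i replicate 5 their values were -0.45 for Timp1, -0.37 for Timp4, -0.04 for Mmp8, -0.18 for Mmp9, -0.69 for Mmp12 and -0.84 for Mmp13, each nearer to 0. Other libraries moved them further in either direction. Without KI ASK1i replicate 2 the values were -0.87 for Timp1, -0.60 for Mmp8, -0.72 for Mmp9, -1.21 for Mmp12 and -1.43 for Mmp13, and without KI ASK1i replicate 3P that of Timp4 was -1.12. Without KI control replicate 1 they were -0.43 for Timp1, -0.18 for Timp4, -0.13 for Mmp12 and -0.55 for Mmp13, and without KI control replicate 2 they were 0.01 for Mmp8 and -0.18 for Mmp9. Timp3 (0.08, SE 0.17, edgeR adjusted p = 0.881) and Mmp14 (-0.12, SE 0.17, edgeR adjusted p = 0.807) lay near 0. Without KI ASK1i replicate 5, Timp3 was at -0.02 and Mmp14 at -0.06. The stellate cell list was at a median of -0.44 in the same comparison, with 0 of 12 markers called; its part in the Mmp2 and Timp2 values was not tested.

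In WT liver the diet moved no member past the threshold either, where 1.40% of all genes were called. Mmp8 was at -1.64 (SE 0.94, edgeR adjusted p = 0.456) and Timp1 at -1.15 (SE 0.82, edgeR adjusted p = 0.569), both from few counts (26 Mmp8 counts in 8 WT ASK1i libraries and 94 in 10 WT control libraries). All 8 WT ASK1i libraries were below the WT control mean of Mmp8 and 4 were below every WT control library. The more abundant members lay closer to 0, with -0.26 (SE 0.15) for Mmp14, -0.13 (SE 0.14) for Timp3, -0.13 (SE 0.11) for Timp2 and 0.11 (SE 0.15) for Mmp2. The difference between the diet effects in KI and WT, tested as an interaction, called 0 of 14934 genes with edgeR (1251 at an unadjusted p under 0.05; 16 with DESeq2 and 6 with limma-voom), and 0 members with each. It was largest relative to its error in Mmp2, at -0.71 (SE 0.23, p = 0.00423 unadjusted, edgeR adjusted p = 0.453), and at -0.11 in male libraries alone.

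**Figure D4:**
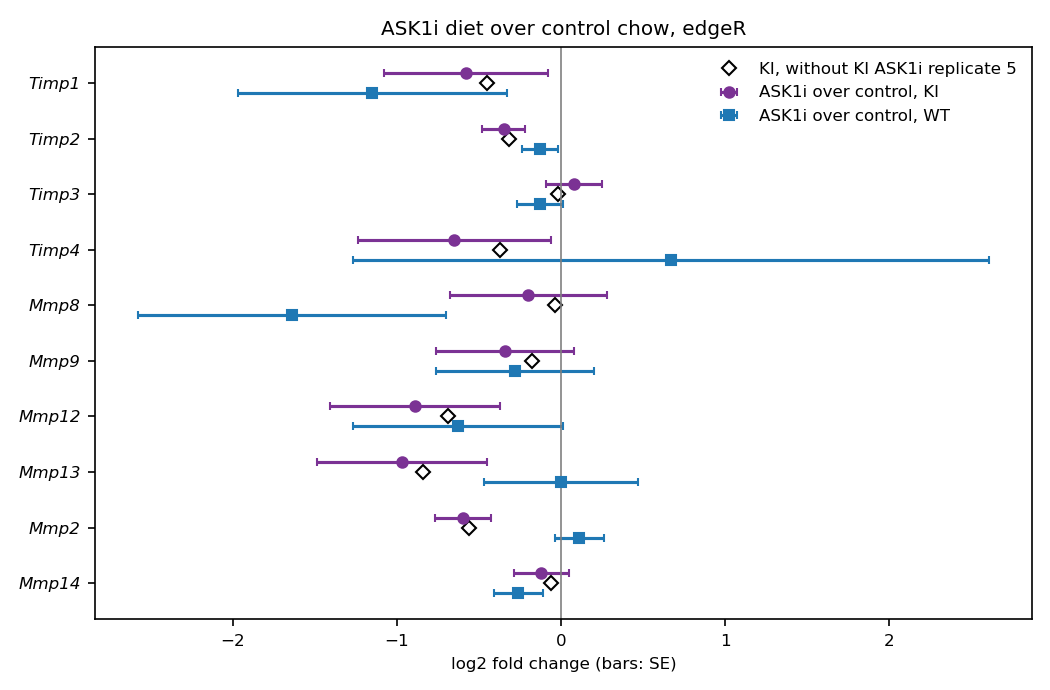
Log2 fold changes of the ASK1i diet over control chow from edgeR with standard errors, in KI (circles) and WT (squares), with the KI value without KI ASK1i replicate 5 as an open diamond. Mmp2 and Timp2 have the shortest bars lying wholly below 0 in KI, and the low-count members have wide bars in WT.

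Other genes of the same proteolytic network were counted in 4 lists. Their counts are a description and are to be read against all genes tested, of which 27.8% were higher and 28.9% lower in KI on control chow, with 30.3% and 28.8% on the inhibitor diet. Of 17 other matrix metalloproteinases 13 were in the table and 9 were tested, with 4 higher and 3 lower in KI on control chow (median 0.43) and 5 higher and 4 lower on the ASK1i diet (median 0.76). Mmp25, a membrane-anchored protease of leukocytes, had a mean of 4.34 CPM in KI control and 0.059 CPM in WT control, with a log2 fold change of 6.01 (SE 0.64, edgeR adjusted p = 1.26e-08). WT control had 18 Mmp25 counts in 10 libraries and WT ASK1i 12 in 8, so this contrast is description. Mmp7, matrilysin, was at 3.76 (SE 0.60, edgeR adjusted p = 5.46e-06) and Mmp23 at 1.51 (SE 0.28, edgeR adjusted p = 4.37e-05). WT control had 87 Mmp7 counts in 10 libraries and WT ASK1i 83 in 8, so the contrast of Mmp7 is description as well. Mmp15, a relative of Mmp14, was lower, with means of 5.38 CPM in KI control and 18.0 CPM in WT control (-1.84, SE 0.36, edgeR adjusted p = 9.03e-05), and Mmp19 was lower on the ASK1i diet (-0.85, SE 0.14, edgeR adjusted p = 3.31e-06; -0.96 without KI ASK1i replicate 5). Of 17 ADAM and ADAMTS proteases tested, 13 were higher and 1 lower on control chow (median 0.92) and 11 higher and 1 lower on the ASK1i diet (median 0.60). Adam8, a protease of leukocytes, had means of 8.59 CPM in KI control and 0.481 CPM in WT control (4.07, SE 0.38, edgeR adjusted p = 2.83e-09). Adam10 (0.92, SE 0.11) and Adam17 (0.80, SE 0.11), sheddases of cell-surface proteins, and Adam15 (1.39, SE 0.19) were higher by less, with edgeR adjusted p of 3.52e-08, 4.58e-07 and 7.9e-07, and Adamts15 was higher on the ASK1i diet (2.82, SE 0.34, edgeR adjusted p = 5.22e-08; 2.98 without KI ASK1i replicate 5).

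Among 7 regulators of these proteases, 3 were higher and 2 lower on control chow (median 0.14) and 3 higher and 3 lower on the ASK1i diet (median 0.16). A2m, the plasma protein that traps proteases, had means of 11.0 CPM in KI control and 0.0824 CPM in WT control (7.95, SE 0.92, edgeR adjusted p = 4.85e-08). WT control had 25 A2m counts in 10 libraries and WT ASK1i 20 in 8, so this contrast too is description. The spread of A2m on the ASK1i diet was wide, from 0.183 to 207 CPM in KI libraries (0.98 as the lowest without replicate 5), against 0 to 0.162 CPM in WT libraries. Cd63, a membrane protein that binds Timp1, had means of 23.1 CPM in KI control and 3.66 CPM in WT control (2.72, SE 0.28, edgeR adjusted p = 7.72e-09). Tfpi2 (-1.08, SE 0.21, edgeR adjusted p = 0.000104), a serine protease inhibitor, was lower and Pzp (0.73, SE 0.18, edgeR adjusted p = 0.00104), a relative of A2m, was higher; neither call was met with the L code of the titles in the model (edgeR adjusted p = 0.0734 and 0.135). Bsg, basigin, an inducer of metalloproteinases, was the 1 gene of the 4 lists that the diet moved past the threshold in WT, with means of 364 CPM in WT ASK1i and 305 CPM in WT control (0.26, edgeR adjusted p = 0.031). That call was not met when WT control replicate 1, 3, 1P or 2P or WT ASK1i replicate 4, 5, 1P or 2P was left out (edgeR adjusted p up to 0.0991). Nor was it met with group only (0.053), the L code (0.449), the replicate number as a block (0.0712), numbered titles alone (0.527) or males alone (1.0), each an edgeR adjusted p. Of 10 genes of plasminogen and proprotein activation, 5 were higher and 2 lower on each diet (medians 0.38 with control chow and 0.22 with the inhibitor). Plaur, the urokinase receptor, had means of 7.80 CPM in KI control and 0.63 CPM in WT control (3.74, SE 0.33, edgeR adjusted p = 1.93e-09). The proprotein convertases split, with Pcsk6 at -1.54 (SE 0.19, edgeR adjusted p = 7.07e-08) and Furin, which activates Mmp14, at -0.56 (SE 0.10, edgeR adjusted p = 1.9e-05) on control chow, and Pcsk5 at 0.72 (SE 0.16, edgeR adjusted p = 0.000291; 0.81 without KI ASK1i replicate 5) on the ASK1i diet.

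Among the 14 KI libraries without KI ASK1i replicate 5, each member's log2 CPM was set beside the summed CPM of 4 marker lists, which hold none of the members. Of the 40 relations, 11 passed a Benjamini-Hochberg adjusted permutation p of 0.05 for Pearson's r. Mmp9 followed the neutrophil markers most closely (r = 0.91, rho = 0.82, n = 14, permutation p = 2e-05 and 0.00055, adjusted 0.0008 and 0.00747), with r = 0.82 without the 2 libraries farthest from the median. It also passed with the Kupffer cell markers, the resident macrophages of liver, at a lower r and the same rho (r = 0.73, rho = 0.82, permutation p = 0.00244 and 0.00056, adjusted 0.0167 and 0.00747; 0.82 without the 2 farthest). In the 9 KI ASK1i libraries alone r was 0.96 with the neutrophil markers (exact permutation p = 0.000408, adjusted 0.0163) and 0.73 with the Kupffer cell markers (exact permutation p = 0.022, adjusted 0.126). Mmp8 had r = 0.78 and rho = 0.76 with the neutrophil markers (permutation p = 0.00134 and 0.00226, adjusted 0.0134 and 0.0226; 0.68 without the 2 farthest), and in the 9 KI ASK1i libraries r was 0.75 (exact permutation p = 0.0179, adjusted 0.119). It passed with 2 further lists, the Kupffer cell markers (r = 0.70, permutation p = 0.00366, adjusted 0.0183) and the monocyte-derived macrophage markers (r = 0.68, permutation p = 0.00448, adjusted 0.0199). In the 9 KI ASK1i libraries its r with these was 0.78 and 0.71 (adjusted exact permutation p = 0.119 and 0.13). In both sets Mmp8 was thus not particular to the neutrophil list. In the 9 numbered KI libraries without KI ASK1i replicate 5, its r was 0.98 with the neutrophil markers. There it was 0.85 with Kupffer cell, 0.73 with stellate cell and 0.67 with monocyte-derived macrophage markers. Without the 2 farthest libraries these were 0.97, 0.79, 0.55 and 0.27. Timp1 followed the monocyte-derived macrophage markers (r = 0.75, rho = 0.61, permutation p = 0.00107 and 0.0224, adjusted 0.0134 and 0.0815; 0.61 without the 2 farthest), also in the 9 KI ASK1i libraries (r = 0.85, exact permutation p = 0.0019, adjusted 0.038). In the 9 numbered KI libraries r was 0.82 and rho 0.47, but r was -0.01 without the 2 farthest. The relation in that set thus rested on 2 libraries.

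Over the 14 KI libraries, Timp2, Mmp2 and Mmp13 had their highest r with the stellate cell and myofibroblast markers. Timp2 had r = 0.81 and rho = 0.83 (permutation p = 0.00038 and 0.00039, adjusted 0.0076 and 0.00747; 0.87 without the 2 farthest), and it also passed with the neutrophil markers (r = 0.68, permutation p = 0.00757, adjusted 0.0303) and the Kupffer cell markers (r = 0.65, permutation p = 0.0115, adjusted 0.042). Mmp2 had r = 0.73 and rho = 0.70 (permutation p = 0.00294 and 0.00694, adjusted 0.0168 and 0.0463; 0.84 without the 2 farthest), and Mmp13 had r = 0.72 and rho = 0.66 (permutation p = 0.0025 and 0.0125, adjusted 0.0167 and 0.0526; 0.77 without the 2 farthest). In the 9 KI ASK1i libraries alone r with the stellate cell list was 0.80 for Timp2, 0.65 for Mmp2 and 0.61 for Mmp13, with adjusted exact permutation p of 0.119, 0.208 and 0.225. None of them passed there, among fewer libraries, and KI control alone has too few libraries for a value. In those 9 libraries Mmp13 had a higher r with the monocyte-derived macrophage markers (0.73, adjusted exact permutation p = 0.13). In the 9 numbered KI libraries without KI ASK1i replicate 5, Timp2 had r = 0.88 with the Kupffer cell and 0.82 with the stellate cell markers. In that set the stellate cell list still gave the highest r for Mmp2 (0.90) and Mmp13 (0.78). Levels also lay lower on the ASK1i diet. Summed CPM of the stellate cell list was 459 to 727 in KI control and 377 to 570 in the 9 KI ASK1i libraries. Log2 fold changes of the diet in KI were -0.35 for Timp2, -0.60 for Mmp2 and -0.97 for Mmp13, none called. The r over 14 libraries pools both diets, and the part of the diet difference in it was not tested. Timp4 passed with none of the lists: its r ran from -0.36 with the macrophage markers to 0.02 with the Kupffer cell markers. Without KI ASK1i replicate 5, Timp4 and the summed neutrophil, macrophage and Kupffer cell markers did not overlap between KI and WT. For the Kupffer cell markers the gap was narrow (lowest KI library 1159, highest WT library 1130 CPM). Stellate cell sums overlapped between genotypes (from 377 in KI ASK1i, up to 418 in WT control). Timp3, Mmp12 and Mmp14 passed with none of the lists either.

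**Figure D5:**
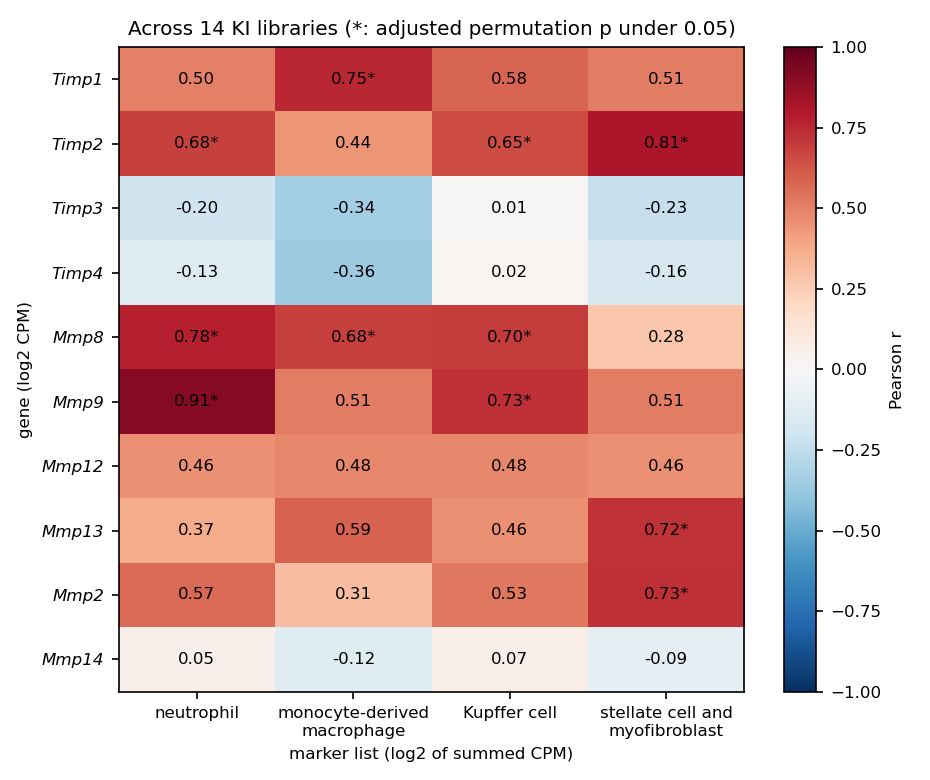
Pearson r of each member's log2 CPM with the log2 summed CPM of 4 marker lists over 14 KI libraries, red for positive and blue for negative values, with a star where the adjusted permutation p is under 0.05. Mmp9 with the neutrophil markers is the deepest red at 0.91, and the Timp4 and Mmp14 rows are pale or blue.

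Over all 15 KI libraries, the genes with a pattern most like that of Timp1 were Casp4 (r = 0.962), P2rx7 (0.952), Gpr35 (0.946) and the member Mmp12 (0.944), and those most like Timp4 were Serpina12 (0.975), Cadm4 (0.971), Ubd (0.969) and Syn2 (0.966). The low values of KI ASK1i replicate 5 carry much of this likeness. Without it, over 14 libraries, r was 0.89, 0.86, 0.85 and 0.85 for the genes like Timp1, and 0.58, 0.80, 0.60 and 0.66 for those like Timp4.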

How the data were processed

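Per the labels' protocols, liver RNA was isolated with a Qiagen miRNeasy kit and polyadenylated, strand-marked libraries were prepared with Illumina's TruSeq kit. The submitters' processing notes name CASAVA 1.8.2, STAR 2.4, RSEM 1.2.14 and build mm10. The authors deposited expected counts from RSEM without normalisation, with the annotation and the strand setting not given in the sources used here, and 91.4% to 93.7% of values per library were whole.

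Rounded counts entered edgeR 4.0.16 in R 4.3.3 (TMM, filterByExpr by group, robust quasi-likelihood F test). The model held group, sex and title set for all 33 libraries together. P-values were two-sided and adjusted by Benjamini-Hochberg over 14934 genes in each of 5 comparisons, at a threshold of 0.05. The prior count of fold changes was 0.125 and SE is their standard error. Floors cover counting error only. No library repeated another of its group (128 pairs, 12068 genes, lowest chi-square per gene 26.3, median 123). Correlations used 100000 permutations, or every one under 10 libraries.

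The rule named all members and Nlrp3, and from each of 4 related lists up to 4 called genes with the smallest p per comparison and a mean of at least 0.5 CPM. For Timp1 and Timp4 it also named the 4 genes with the highest r over KI libraries at a mean of at least 1 CPM. The synapsin genes were named for their positions. One gene that the rule named is not reported here. Members and lists were chosen with earlier results of these data known. The alternatives changed the size factors (RLE), the tool (DESeq2 1.42.0, or limma-voom of limma 3.58.1 with quality weights), the count filter, the rounding or the covariates, added the replicate number as a block, took subsets of libraries, or left out 1 library. The gene test was tested on simulated counts. Sequences are RefSeq's.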

Additional observations from a re-analysis of the deposited data

Results flagged for a closer look

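Of 40 sets of values (10 members in 4 groups), 5 held a library far from the rest by Dixon's test, which chance gives in about 1 group in 20. Mmp12 was at 28.9 CPM in KI control replicate 1, the female of that group, with the next library at 7.82 CPM. Mmp13 was at 1.85 CPM in KI ASK1i replicate 4, with the next at 0.699 CPM. The other 3 were high libraries in WT groups with few counts: Mmp12 at 0.733 CPM in WT ASK1i replicate 7 (next 0.384 CPM), Timp1 at 0.194 CPM in WT ASK1i replicate 5 (next 0.0687 CPM) and Timp4 at 0.27 CPM in WT control replicate 8 (next 0.0636 CPM). KI ASK1i replicate 5, described with the results, was not singled out by this test in any member.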

How the results depend on the processing

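The KI against WT calls of Timp3, Mmp9 and Mmp12 were met on both diets under every alternative run. Those of Timp1, Timp4 and Mmp8 were too, which is no support, since these genes passed the low-count filter only through KI libraries, and the exceptions for Mmp2, Mmp13 and Mmp14 stand with the results. With each library left out in turn, KI against WT called 8 to 9 members with control chow and 8 with the ASK1i diet, and 0 members were called in the other comparisons. Of all genes tested, the share called ran from 49.2% to 59.8% and from 56.1% to 63.2% for KI against WT, from 0.677% to 2.51% for the diet in WT, from 0% to 0.094% for the diet in KI and from 0% to 0.0201% for the interaction, where main values were 56.7%, 59.1%, 1.40%, 0.0536% and 0%. Deviations of same-numbered libraries of different groups had r from -0.21 to 0.36 (37 pairs, median 0.02, 10 over 0.1). Pairs with different numbers were not set beside them, so whether a shared number means shared handling was not tested. With the replicate number as a block 8, 8, 0, 0 and 0 members were called, Mmp2 on control chow at 0.48 (edgeR adjusted p = 0.0626), and 0.891% of genes for the diet in WT and 0% in KI.

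Other shares of genes called also moved by over 1.5 times. For KI against WT with control chow the share was 34.2% with the L code in the model, where KI control and WT control share no code. For the diet in WT the shares were 2.44% with DESeq2, 5.42% with limma-voom, 0.154% with the L code, 0.128% in numbered titles, 0% in males and 5.11% with the 2 groups alone, where 6 members were tested. For the diet in KI they were 0.0268% with RLE, 0.248% with DESeq2, 0.121% with limma-voom, 0.0201% with group only, and 0% with the L code, in numbered titles, in males and with the 2 groups alone. The interaction had 0.107% with DESeq2 and 0.0402% with limma-voom, and could not be fitted with 2 groups alone. The cause was not tested.

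All values that changed sign were of differences or correlations that had not passed the test, most of them near 0. For the diet in WT, Mmp13 (0.00) was -0.0082 with RLE, -0.0057 with no filter, -0.020 with DESeq2, -0.024 with group only, -0.10 with limma-voom, -0.15 with the L code, -0.41 in males and -0.36 to 0.41 with 1 library left out. Timp4 was -0.24 with the L code and -1.36 in males, and in males Mmp2 was -0.22, Mmp9 0.018 and Mmp14 0.20. For the diet in KI, Timp3 was -0.028 with limma-voom, -0.11 with the L code, -0.010 in males and -0.017 to 0.10 with 1 library left out; Mmp8 was 0.32 with the L code and -0.60 to 0.014 with 1 left out, and with the L code Mmp9 was 0.18 and Mmp14 0.19. For the interaction with the L code, Timp3 was -0.023, Timp4 0.074, Mmp9 0.53 and Mmp12 0.56; in numbered titles Mmp9 was 0.17 and Mmp14 -0.013; in males Timp2 was 0.055, Timp4 1.17, Mmp12 1.21 and Mmp14 -0.26; with 1 left out Mmp9 ran from -0.45 to 0.086 and Mmp12 from -0.59 to 0.61. Timp2 in KI against WT on the ASK1i diet was 0.17 in males. In KI ASK1i libraries alone, r with the Kupffer cell markers was -0.11 for Timp3 and -0.12 for Timp4.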
